A study of Mus musculus with 9 samples.

Results

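Rnf128, Slc6a13, Prnp, Tspan13 and Fhl2 are 5 genes that stood highest in group 2 innate lymphoid cells (ILC2) sorted from the aged mouse brain and are not among the usual markers of that cell. They were picked for exactly that pattern, being chosen by their measured levels in ILC2 against those in T cells and microglia, and were matched by symbol to 5 of the 24394 gene rows kept from the count table. Their height in ILC2 is therefore a description and carries no test here. The brains came from C57BL/6 mice of 20 to 22 months, and every mouse had been injected with 400 ng of interleukin-33 (IL-33) daily for 7 days. No untreated or young brain was compared, so nothing here measures an effect of IL-33 or of age. ILC2, T cells and microglia were sorted on surface markers that the labels do not name, and the labels list 3 samples of each. The count table has 9 library columns, of which 1 is headed ILC1, matches no label and was not used, so that 2 ILC2, 3 T cell and 3 microglia libraries were analysed.

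ILC2 are tissue lymphocytes without rearranged antigen receptors. They answer alarm cytokines such as IL-33 through the receptor encoded by Il1rl1, depend on the transcription factors Gata3 and Rora, and release type 2 cytokines. In the brain they are found mainly at the borders, in the meninges and the choroid plexus. The 5 genes encode proteins with little in common. Rnf128 (GRAIL) is a membrane-bound E3 ubiquitin ligase of the PA-TM-RING family, best known from T cell anergy. Slc6a13 (GAT2) is a sodium-coupled transporter that carries GABA and taurine into cells. Prnp encodes the cellular prion protein, which is held on the cell surface by a GPI anchor. Tspan13 is a tetraspanin, a protein that spans the membrane repeatedly and organises partner proteins in it. Fhl2 is built of LIM domains and acts as an adaptor of signalling and transcription factors.

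The libraries held 8376609 to 13585956 counts on genes. Levels are in CPM, the counts scaled to a common library size by the TMM method, given as mean ± SD, with n = 2 for ILC2 and n = 3 for T cells and for microglia. The number of cells per library is not known, and fewer expressing cells and less RNA per cell cannot be told apart in sorted populations read in bulk. Each population was highest in the markers of its own name. The summed level of 12 ILC2 markers was 8228 to 8270 CPM in ILC2, 648 to 920 CPM in T cells and 62.9 to 80.3 CPM in microglia. The summed level of 8 T cell markers was 608 to 801 CPM in ILC2, 7732 to 10466 CPM in T cells and 18.8 to 45.2 CPM in microglia. The sum in ILC2 was nearly all Cd3g, at 559 and 791 CPM. The other T cell markers were each at 22.4 CPM (Cd3e in ILC2 1) or less in ILC2, and Cd6 had no count there. The summed level of 8 microglial markers was 757 to 845 CPM in ILC2, 486 to 1344 CPM in T cells and 35251 to 53907 CPM in microglia.

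The sequence before the start of transcription was read for all 5 genes from RefSeq (mouse build GRCm38.p6, the mm10 assembly), and 5 of 5 matched. Both RefSeq starts of Fhl2 are shown because Fhl2 was the only member with no count in microglia, and those of Prnp and Tspan13 because these were the most alike of the 5 across libraries. Each line gives the 250 bases before the start, 5′ to 3′ on the strand of the gene. Capitals mark any of 4 motifs, each searched on both strands. The GC box, bound by Sp-family factors, was searched as GGGCGG. The GATA site was searched as AGATAA and the TATA box, where transcription can be set up, as TATAAA. The site of ROR receptors such as Rora was searched as AGGTCA. A match on the opposite strand appears as its reverse complement.
Fhl2 start 1, chr1:43196762-43197011, minus strand: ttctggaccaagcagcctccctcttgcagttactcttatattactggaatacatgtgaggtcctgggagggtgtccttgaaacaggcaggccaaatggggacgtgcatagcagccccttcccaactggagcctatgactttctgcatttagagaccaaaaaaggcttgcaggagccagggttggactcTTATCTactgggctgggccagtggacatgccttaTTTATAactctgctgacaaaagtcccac
Fhl2 start 2, chr1:43163962-43164211, minus strand: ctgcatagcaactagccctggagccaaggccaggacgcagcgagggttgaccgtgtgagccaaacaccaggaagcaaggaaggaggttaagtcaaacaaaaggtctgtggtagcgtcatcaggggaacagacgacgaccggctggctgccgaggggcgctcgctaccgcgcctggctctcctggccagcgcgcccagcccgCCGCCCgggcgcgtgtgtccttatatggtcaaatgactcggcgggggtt
Prnp, chr2:131909678-131909927, plus strand: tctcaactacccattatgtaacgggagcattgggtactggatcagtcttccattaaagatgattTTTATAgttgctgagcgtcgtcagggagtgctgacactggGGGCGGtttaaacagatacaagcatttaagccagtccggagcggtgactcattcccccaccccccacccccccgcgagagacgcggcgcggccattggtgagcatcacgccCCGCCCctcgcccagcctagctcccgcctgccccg
Tspan13, chr12:36042479-36042728, minus strand: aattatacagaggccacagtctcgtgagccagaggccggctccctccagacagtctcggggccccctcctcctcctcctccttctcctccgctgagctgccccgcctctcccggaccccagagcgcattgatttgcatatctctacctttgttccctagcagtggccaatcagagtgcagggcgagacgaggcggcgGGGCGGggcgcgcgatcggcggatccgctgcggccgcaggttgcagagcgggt

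The promoters of Fhl2 start 2, Prnp, Tspan13 and Rnf128 had 21, 17, 21 and 21 CpG sites in the 250 bases and those of the 3 RefSeq starts of Slc6a13 had 9, 6 and 2, against a median of 15 in the 12693 RefSeq promoters of genes tested. Fhl2 start 1 had 1 CpG site and no GC box. It alone of all these windows held the GATA letters, as TTATCT at -62 from the start, and it held the TATA letters on the opposite strand at -28. AGATAA was found in 6.11% and TATAAA in 6.72% of the promoters of genes tested. Prnp held GGGCGG at -146, its reverse complement at -35 and the TATA letters on the opposite strand at -186, and Tspan13 held GGGCGG at -53. GGGCGG was found in 55.5% of the promoters of genes tested. AGGTCA was found in Slc6a13 start 3 alone, on the opposite strand at -224, and in 11.1% of the promoters of genes tested. These are matches of letters in a window, and a count per gene does not tell which start of Fhl2 or Slc6a13 was read. The window of Rnf128, from 139610370 to 139610619 on chromosome X, lies inside the annotated gene, which begins at 139563316. The sequence before that beginning was not searched.

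**Figure D1:**
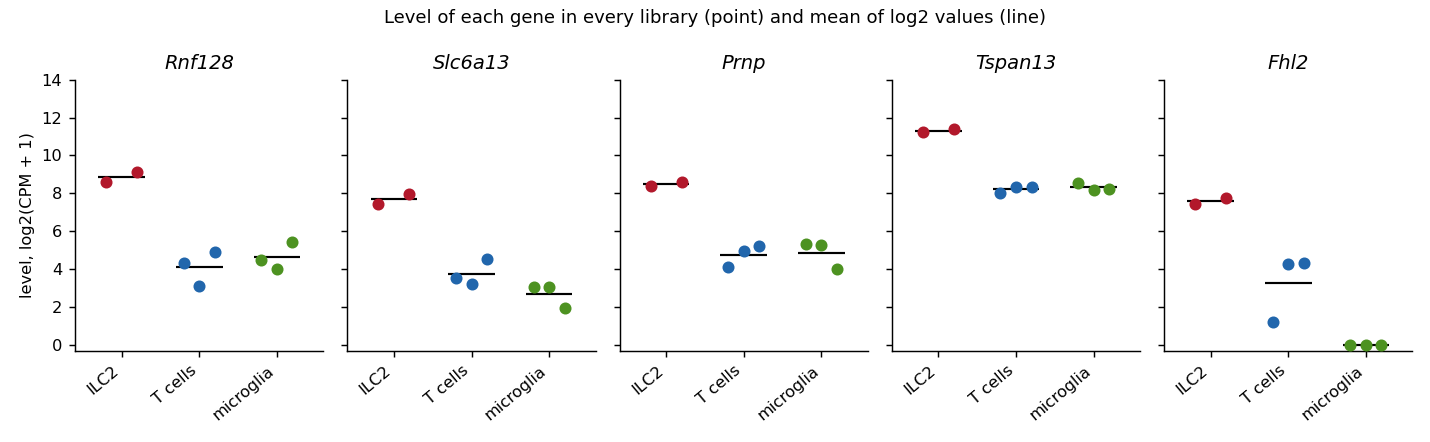
The level of each gene in every library, as log2(CPM + 1), for ILC2 (red), T cells (blue) and microglia (green); each point is a library and each line the mean of the log2 values. The ILC2 points lie above all others in each panel, T cells and microglia overlap for Rnf128, Prnp and Tspan13, and the microglia points of Fhl2 lie at 0.

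Rnf128 was at 392 and 564 CPM in the ILC2 libraries, at 19.0, 7.58 and 29.4 CPM in the T cell libraries and at 21.4, 15.3 and 41.8 CPM in the microglia libraries. The ILC2 libraries stood far above the other 6, and those 6 were mixed. The mean of 478 ± 121 CPM in ILC2 was 25.6 times the mean of 18.7 ± 10.9 CPM in T cells and 18.3 times the mean of 26.2 ± 13.9 CPM in microglia. Between T cells and microglia, a contrast that the choice of genes did not set, the log2 fold change was -0.49 ± 0.52 (± SE, adjusted p = 0.613, edgeR quasi-likelihood test). Rnf128 lies on chromosome X from 139563316 to 139673145 in mm10, on the plus strand.

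Rnf128 was also the leading transcript of its enzyme family in ILC2. Per kilobase (kb) of annotated exon, it stood at 138 CPM per kb in ILC2, against 5.38 for T cells and 7.56 for microglia. It supplied 50.7% and 51.1% of the summed per-kb level of 12 PA-TM-RING genes in the ILC2 libraries, 1.83% to 7.46% in the T cell libraries and 1.63% to 3.89% in the microglia libraries. The gene below it in ILC2 was Rnf130, at 69.0 CPM per kb, while Rnf167 led in T cells at 57.6 and Rnf130 in microglia at 119. Of the 8 other family members that passed the filter on low counts, 1 was called higher in ILC2 against T cells and none was called lower. Of all genes tested, 0.923% were called in that comparison, 0.431% as higher and 0.492% as lower. That gene was Rnf130, at 80.9 and 134 CPM in ILC2 against 21.3, 19.1 and 34.3 CPM in T cells (log2 fold change 2.11 ± 0.39, edgeR adjusted p = 0.0424). Its call was lost on leaving out any of the 8 libraries, with an adjusted p of 0.0502 to 0.221. Against microglia Rnf43 was higher in ILC2, at 13.8 and 4.36 CPM with no count in microglia, and Rnf13 lower, at 119 and 97.1 CPM against a mean of 739 CPM (edgeR adjusted p = 0.00909 and 0.00141). The call of Rnf43 was lost with only the 2 groups compared (0.0804) and by the newer quasi-likelihood method (0.0780). In this comparison 9.75% of all genes were called, 4.99% as higher and 4.76% as lower.

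Among 17 tested genes of the pathway around GRAIL and of T cell anergy, edgeR called 1 higher in ILC2 against T cells and 0 lower, with 4 in either direction at an unadjusted p under 0.05. DESeq2 called 2 lower (Cd40lg and Dtx1), limma-voom 1 (Dtx1) and the newer quasi-likelihood method 1 (Cd40lg). Cd40lg, the CD40 ligand gene, was at 5.82 and 1.59 CPM in ILC2 and at 85.6, 59.96 and 66.1 CPM in T cells (edgeR adjusted p = 0.109). Against microglia edgeR called 2 higher (Cd40lg and Dgka) and 2 lower (Cd83 and Cd81). Over all genes tested, 0.431% were called higher and 0.492% lower against T cells, and 4.99% and 4.76% against microglia. The call of Cd40lg against microglia was lost with only the 2 groups compared (adjusted p = 0.185) and by the newer method (0.148). The gene higher than in T cells was Cd81, a tetraspanin that is a substrate of GRAIL, at 888 ± 35.8 CPM in ILC2 and 215 ± 38.3 CPM in T cells (log2 fold change 2.05 ± 0.27, edgeR adjusted p = 0.0110). Its level in microglia was higher than in either, at 5588 CPM. The other E3 ligases linked to anergy did not pass edgeR's test. Dtx1 had no count in ILC2 and was at 8.90, 16.5 and 14.4 CPM in T cells (adjusted p = 0.243), without overlap. Cblb was at 38.2 and 13.4 CPM in ILC2 against 41.3 to 63.6 CPM in T cells (adjusted p = 0.979), and Itch at 78.1 and 22.1 CPM in ILC2 against 29.5 to 61.9 CPM in T cells (adjusted p = 1.0).

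Slc6a13 was at 175 and 250 CPM in the ILC2 libraries, at 10.4, 8.34 and 22.5 CPM in the T cell libraries and at 7.28, 7.21 and 2.81 CPM in the microglia libraries. The lowest ILC2 library was 7.78 times the highest T cell library. The mean of 212 ± 52.7 CPM in ILC2 was 15.4 times that in T cells (13.8 ± 7.65 CPM) and 36.8 times that in microglia (5.77 ± 2.56 CPM). Each T cell library lay above each microglia library. In 37.2% of all genes tested the libraries of these populations did not overlap, counted in either direction. The log2 fold change between T cells and microglia was 1.25 ± 0.53 and did not pass the test (edgeR adjusted p = 0.158). Slc6a13 lies on chromosome 6 from 121300227 to 121337733, on the plus strand.

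Slc6a13 made up most of the SLC6 family transcripts of ILC2. This family moves GABA, glycine, monoamines, taurine and creatine across the plasma membrane with sodium. Of the summed per-kb level of 19 SLC6 genes, Slc6a13 held 78.6% and 83.8% in the ILC2 libraries, 22.2% to 30.1% in the T cell libraries and 3.90% to 8.17% in the microglia libraries. Slc6a6, the taurine transporter, led the family in T cells (9.71 CPM per kb, against 4.74 for Slc6a13) and in microglia (22.9 against 1.99), and stood at 10.7 CPM per kb in ILC2 against 73.1 for Slc6a13. None of the 8 other SLC6 genes tested was called between ILC2 and T cells by edgeR, with 2 at an unadjusted p under 0.05, 0 called by DESeq2 and 1 by limma-voom. None was called against microglia either, with 2 at an unadjusted p under 0.05, 1 called by DESeq2 and 1 by limma-voom. Slc6a12 (BGT1), the betaine and GABA transporter that lies 5.34 kb from Slc6a13, was at 4.77 and 10.1 CPM in the ILC2 libraries, was without a count in the T cell libraries and had counts in 1 microglia library.

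Other genes of GABA and taurine handling were mostly sparse. Of 30 listed genes of GABA and taurine metabolism and GABA receptors, 11 had no count in any library and 10 were tested. By edgeR none was called between ILC2 and T cells, with 0 at an unadjusted p under 0.05 and 0 called by DESeq2 or limma-voom. Against microglia none was called, with 2 at an unadjusted p under 0.05 and 0 called by DESeq2 or limma-voom. Abat, the transaminase that breaks down GABA, was at 0 and 5.63 CPM in ILC2 against 0.965 to 21.2 CPM in T cells (adjusted p = 0.996). Aldh9a1, which can form GABA from an aldehyde, was at 123 and 93.4 CPM in ILC2 against 83.7 to 149 CPM in T cells (adjusted p = 1.0).

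Prnp was at 331 and 390 CPM in the ILC2 libraries, at 16.4, 29.7 and 35.7 CPM in the T cell libraries and at 39.4, 37.4 and 15.0 CPM in the microglia libraries. ILC2 stood alone, and the T cell and microglia libraries covered nearly the same range. The mean of 360 ± 41.6 CPM in ILC2 was 13.2 times that in T cells (27.2 ± 9.87 CPM) and 11.8 times that in microglia (30.6 ± 13.5 CPM). The log2 fold change between T cells and microglia was -0.17 ± 0.44 (edgeR adjusted p = 0.871). Prnp lies on chromosome 2 from 131909928 to 131938429, on the plus strand. It overlaps the annotated gene Prn, whose row held no count in any of the 8 libraries. Its relative Prnd, 12.4 kb away, had no count in any library either.

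Among GPI-anchored proteins of the leukocyte surface, Prnp was a minor transcript. It held 1.46% and 2.06% of the summed per-kb level of 19 such genes in the ILC2 libraries, 0.0996% to 0.269% in the T cell libraries and 0.204% to 0.513% in the microglia libraries, where Cd52 led in each population. By rank per kb it was 5th in ILC2, 12th in T cells and 10th in microglia. Of the 18 others, none was called higher and 3 were called lower in ILC2 against T cells, while against microglia 5 were higher and 6 lower. Of all genes tested, 0.431% were called higher and 0.492% lower against T cells, and 4.99% and 4.76% against microglia. DESeq2 called 4 lower than in T cells and limma-voom 5. Art2b had no count in ILC2 and was at 16.3 to 55.7 CPM in T cells. It missed the threshold by edgeR (adjusted p = 0.0565) and was called by DESeq2 and limma-voom. Ly6c2, a surface protein with close Ly6 paralogs whose reads may be shared, was at 28.0 and 62.2 CPM in ILC2 against 1044 to 2217 CPM in T cells (log2 fold change -5.09 ± 0.65, edgeR adjusted p = 0.00989, or 0.0620 without ILC2 1). Izumo1r, the folate receptor 4 of regulatory T cells, had no count in ILC2 and was at 50.7 to 97.2 CPM in T cells. Its edgeR adjusted p of 0.0124 moved past the threshold without T cells 1 (0.0703), T cells 2 (0.0530) or ILC2 2 (0.0576). Cd55, an inhibitor of complement, was at 0.0808 and 0 CPM in ILC2 against 17.4 to 50.8 CPM in T cells. Its edgeR adjusted p of 0.0332 became 0.0541 to 0.191 on leaving out any ILC2 or T cell library.

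None of the 9 tested relatives, partners and sheddases of the prion protein was called between ILC2 and T cells by edgeR, with 0 at an unadjusted p under 0.05 and 0 called by DESeq2 or limma-voom. Against microglia 2 were higher in ILC2 and 1 was lower, the sheddase gene Adam17 (edgeR adjusted p = 0.0581 without ILC2 2). In that comparison 4.99% of all genes tested were called higher and 4.76% lower. Fyn, a kinase that signals from the prion protein in neurons, was at 74.2 and 63.4 CPM in ILC2 and at 101 to 154 CPM in T cells (adjusted p = 0.9497). Rpsa, a ribosomal protein gene whose product is also known as the laminin receptor, was at 957 and 1639 CPM in ILC2 and at 914 to 1421 CPM in T cells (adjusted p = 1.0). Fyn and Rpsa were the 2 higher in ILC2 than in microglia (edgeR adjusted p = 0.00329 for Fyn and 0.000967 for Rpsa).

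Tspan13 had the highest level per kb of the 5 genes. It was at 2375 and 2679 CPM in the ILC2 libraries, at 262, 323 and 323 CPM in the T cell libraries and at 377, 286 and 303 CPM in the microglia libraries. The ratio to the other populations was the smallest of the 5, and so was the spread within each population relative to its mean. The mean of 2527 ± 215 CPM in ILC2 was 8.36 times that in T cells (302 ± 35.1 CPM) and 7.85 times that in microglia (322 ± 48.6 CPM). The log2 fold change between T cells and microglia was -0.09 ± 0.23 (edgeR adjusted p = 0.868), the narrowest error of the 5. Tspan13 lies on chromosome 12 from 36014557 to 36042500, on the minus strand.

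Tspan13 was the leading tetraspanin transcript of ILC2 and of neither other population. It held 30.0% and 34.5% of the summed per-kb level of 31 tetraspanin genes in the ILC2 libraries, 5.93% to 7.12% in the T cell libraries and 1.65% to 2.39% in the microglia libraries. In ILC2 it stood at 1022 CPM per kb and Cd53, a tetraspanin found on most leukocytes, came next at 816. Cd53 led in T cells at 927 CPM per kb, against 122 for Tspan13, and Cd81 led in microglia at 1941, against 130 for Tspan13. Of 25 other tetraspanins tested, 2 were called higher in ILC2 against T cells, namely Cd81 and Tspan32, and none lower (by DESeq2 5 and 0, by limma-voom 3 and 0). Against microglia 2 were higher in ILC2 and 5 lower. Over all genes tested, 0.431% were called higher and 0.492% lower against T cells, and 4.99% and 4.76% against microglia. Tspan32, a tetraspanin of blood cells, was at 486 and 655 CPM in ILC2 against 113 to 170 CPM in T cells (log2 fold change 1.94 ± 0.33, edgeR adjusted p = 0.0269). Its adjusted p rose to between 0.0619 and 0.147 on leaving out any ILC2 or T cell library.

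Between T cells and microglia 1 of the 25 was higher in T cells and 7 were lower, against 13.0% of all genes called, 5.91% as higher and 7.13% as lower. Cd9, a widely expressed tetraspanin, was at 132 and 134 CPM in ILC2 and at 86.5 to 162 CPM in T cells, against a mean of 3208 CPM in microglia (T cells over microglia, log2 fold change -4.57 ± 0.34, edgeR adjusted p = 6.867e-05). Tspan4 was likewise lower in T cells than in microglia (-4.32 ± 0.41, edgeR adjusted p = 0.000171).

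Fhl2 was at 171 and 215 CPM in the ILC2 libraries, at 1.30, 18.4 and 18.7 CPM in the T cell libraries, and had no count in any of the 3 microglia libraries. In counts, the T cell libraries held 12, 267 and 188 reads. T cells 1 stood well below the other two, and all 3 lay far below ILC2. The mean of 193 ± 31.2 CPM in ILC2 was 15.0 times that in T cells (12.8 ± 9.97 CPM) and at least 633-fold higher than in microglia, taking a floor of 3 counts per library. T cells were at least 42.1-fold higher than microglia by the same floor. This was the only member called between T cells and microglia (edgeR adjusted p = 0.00565, and 5.73e-09 to 0.0385 over all settings), in a comparison in which 5.91% of all genes were called higher in T cells. The fitted log2 fold change of 10.15 is set by the small count that edgeR adds to a 0 and gives the direction and not the size. Fhl2 lies on chromosome 1 from 43123074 to 43196984, on the minus strand.

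Fhl2 was the main FHL gene of ILC2. Fhl1 was at 13.1 and 0 CPM in ILC2 and Fhl3 at 4.85 and 0.317 CPM. In the wider group of 33 LIM domain genes, Fhl2 was 4th per kb in ILC2 and 13th in T cells, with 7.51% and 8.40% of the summed level in the ILC2 libraries and 0.0509% to 0.756% in the T cell libraries. Crip1, a small LIM protein, led in all 3 populations. Of 27 other LIM domain genes tested, none was called between ILC2 and T cells by edgeR, with 3 at an unadjusted p under 0.05, 0 called by DESeq2 and 1 by limma-voom. Against microglia Crip1 was higher in ILC2 and Lmo2 and Lims1 were lower. Over all genes tested, 0.431% were called higher and 0.492% lower against T cells, and 4.99% and 4.76% against microglia. The call of Lmo2 was lost on leaving out any ILC2 or microglia library (edgeR adjusted p 0.0630 to 0.179), and that of Lims1 without microglia 2 (0.0586) or ILC2 2 (0.133). Of 13 genes of proteins that bind FHL2, edgeR called 1 lower in ILC2 and 0 higher, both against T cells (1 at an unadjusted p under 0.05) and against microglia (5). DESeq2 and limma-voom gave the same counts against T cells. Against microglia DESeq2 called 1 higher and 3 lower, limma-voom 1 and 2, and the newer quasi-likelihood method 1 and 3. The gene that edgeR called was in each case that of the integrin chain Itgb1, at 73.8 and 46.9 CPM in ILC2 against 364 to 615 CPM in T cells (log2 fold change -3.00 ± 0.37, edgeR adjusted p = 0.00915). Against microglia its edgeR adjusted p was 0.00956, or 0.0712 without ILC2 2.

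**Figure D2:**
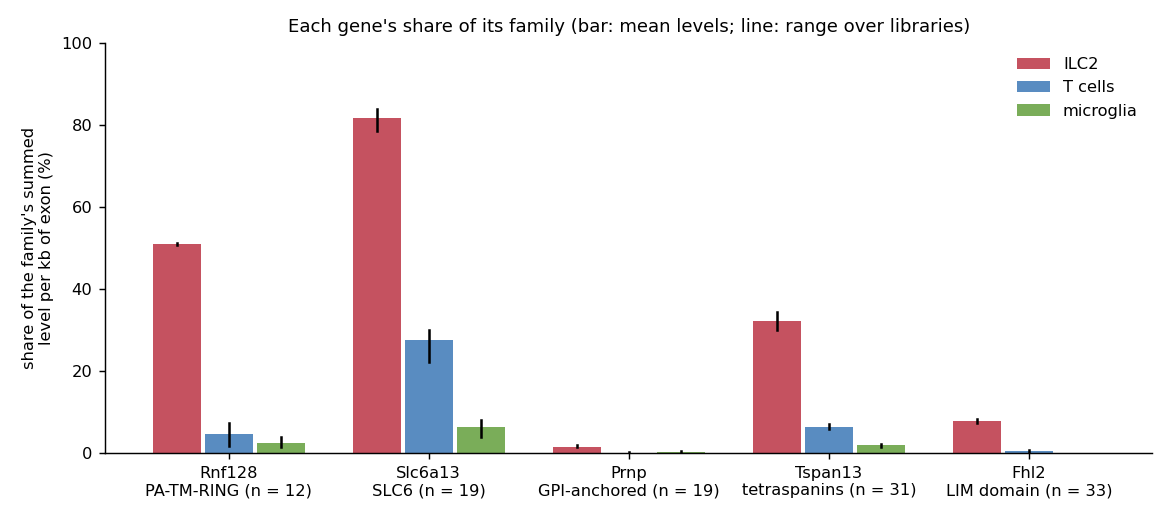
The share of each gene in the summed level per kb of exon of its family, in percent, for ILC2 (red), T cells (blue) and microglia (green); bars are shares of the mean levels, lines run from the lowest to the highest library, and n is the number of genes in the family, the member included. Slc6a13, Rnf128 and Tspan13 hold 81.6%, 50.9% and 32.2% in ILC2, and Prnp and Fhl2 hold small shares in every population.

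Taking the lists of related genes as a whole, 133 of 182 listed genes were tested. In ILC2 against T cells edgeR called 3 higher and 4 lower, where 0.923% of all genes were called. DESeq2 called 6 and 7, limma-voom 6 and 7 and the newer quasi-likelihood method 4 and 6. The median log2 fold change was -0.02 against 0 over all genes tested. In ILC2 against microglia edgeR called 13 higher and 17 lower, where 9.75% of all genes were called. DESeq2 called 16 and 29, limma-voom 18 and 28 and the newer method 16 and 30. The median was -0.71 against -0.01 over all genes tested. In T cells against microglia edgeR called 18 higher and 19 lower, where 13.0% of all genes were called. DESeq2 called 22 and 31, limma-voom 22 and 28 and the newer method 21 and 30. The median was -0.48 against 0.00 over all genes tested. On leaving out 1 library, the number called was 3 to 7, 25 to 32 and 26 to 39 in these 3 comparisons.

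Among themselves, the 5 genes shared ILC2 as the highest population and differed in the size of the gap. The order below ILC2 was not shared. The microglia mean lay above the T cell mean for Rnf128, Prnp and Tspan13 and below it for Slc6a13 and Fhl2. Each had both ILC2 libraries above every T cell and microglia library, as did 833 genes, or 6.41% of those tested, and this is the pattern they were picked for. Over all genes tested, the libraries did not overlap in 25.2% between ILC2 and T cells and in 43.0% between ILC2 and microglia, in either direction. By the log2 ratio of ILC2 to the next population (with 0.5 CPM added), they ranked 46th (Rnf128), 67th (Slc6a13), 73rd (Fhl2), 103rd (Prnp) and 170th (Tspan13) of 13000 genes. By level per kb in ILC2 the order was different: Tspan13 (1022 CPM per kb) lay above 99.7% of genes with a known length, Prnp (154) above 96.8%, Rnf128 (138) above 96.4%, Fhl2 (102) above 95.4% and Slc6a13 (73.1) above 93.7%. Prnp and Rnf128, neighbours in this order, differed by less than the spread of Rnf128 between its ILC2 libraries.

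All 5 genes were higher in ILC2 2 than in ILC2 1, by 1.44 times for Rnf128, 1.43 for Slc6a13, 1.26 for Fhl2, 1.18 for Prnp and 1.13 for Tspan13. Of the 833 genes with both ILC2 libraries on top, 58.0% were higher in ILC2 2, as were 45.9% of the 11458 genes tested with a count in ILC2 1. Some ILC2 markers lay the other way, with Gata3 at 1108 and 647 CPM and Il1rl1 at 1046 and 553 CPM in ILC2 1 and ILC2 2. The summed ILC2 markers were nearly equal, at 8270 CPM in ILC2 1 and 8228 CPM in ILC2 2. Markers of basophils and mast cells were at 409 CPM in ILC2 1 and 1259 CPM in ILC2 2, against 16.3 to 83.5 CPM in T cells and 133 to 354 CPM in microglia, with none of the 8 without a count in ILC2. Markers of the choroid plexus were at 557 and 3210 CPM in ILC2, 524 to 2411 CPM in T cells and 972 to 2781 CPM in microglia. Slc6a13 is also known from fibroblasts of the meninges, whose markers summed to 48.9 to 145 CPM in ILC2, 57.2 to 173 CPM in T cells and 6.42 to 47.4 CPM in microglia. Of these 10 fibroblast markers 1 had no count in ILC2. Dcn was at 47.8 and 21.8 CPM in ILC2, Col1a2 at 22.5 and 2.54 CPM and Lum at 18.5 and 6.42 CPM, against 37.8 to 71.1 CPM, 0 to 13.0 CPM and 0.598 to 61.9 CPM in T cells. Col3a1 was at 27.4 and 0.159 CPM in ILC2, with no count in T cells or microglia, and Slc22a6 had 0 and 1 counts in ILC2. Prnp is known for its level in neurons, whose 7 markers summed to 8.40 to 17.5 CPM in ILC2, 17.3 to 46.0 CPM in T cells and 9.28 to 66.0 CPM in microglia, with 2 of them without a count in ILC2. Tspan13 is also known from plasmacytoid dendritic cells, whose 6 markers summed to 369 to 402 CPM in ILC2, 78.2 to 193 CPM in T cells and 2257 to 2973 CPM in microglia, of which Siglech alone averaged 2427 CPM in microglia and Ccr9 was at 302 and 229 CPM in ILC2. Klk1 had no count in any library. Oligodendrocyte markers were highest in ILC2, at 726 to 1087 CPM. They were at 462 to 608 CPM in T cells and 222 to 278 CPM in microglia. B cell markers were at 348 and 121 CPM in ILC2 1 and ILC2 2. They were at 2.29 to 155 CPM in T cells and 94.0 to 117 CPM in microglia. For astrocytes, and for endothelial cells and pericytes, the highest marker sum was in a microglia library, at 287 and 577 CPM. ILC2 reached at most 50.3 and 291 CPM. The part of all these cell types in the levels of the 5 genes was not tested.

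Outside ILC2, the 5 genes were low but for the most part not silent. Their mean level in T cells was 3.90% of the ILC2 mean for Rnf128, 6.48% for Slc6a13, 6.65% for Fhl2, 7.57% for Prnp and 11.96% for Tspan13. In microglia it was 2.72% for Slc6a13, 5.48% for Rnf128, 8.50% for Prnp and 12.7% for Tspan13, and Fhl2 had no count. The established ILC2 markers gave a yardstick for this remainder. The 12 markers were at 0.137% to 43.2% of their ILC2 mean in T cells, with a median of 3.72%. In microglia they were at 0% to 5.99%, with a median of 0.654%, and 8 of the 12 were under 1%. By these means Prnp and Tspan13 had a larger remainder in microglia than any of the 12 markers, while Fhl2 was at 0 with Nmur1 and Icos. Single libraries did overlap. Rora was at 11.9%, 3.04% and 3.05% in the microglia libraries, against 10.9%, 10.4% and 4.17% for Prnp and 11.3% to 14.9% for Tspan13.

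**Figure D3:**
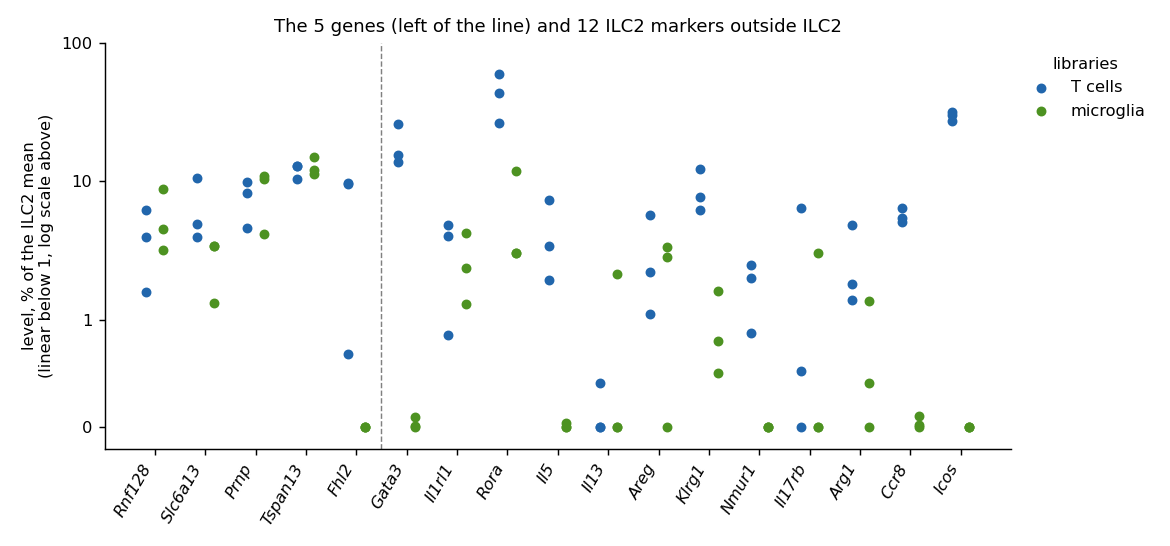
The level in each T cell (blue) and microglia (green) library as a percentage of the gene's ILC2 mean, for the 5 genes left of the dashed line and 12 ILC2 markers right of it; the axis is linear below 1 and logarithmic above. Tspan13 lies between 10% and 15% in both populations. Gata3 lies at 13.8% to 25.8% and Icos at 27.2% to 31.3% in T cells, and both are at or near 0 in microglia.

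Across the 8 libraries, the log2 levels of the 5 genes correlated with each other at Pearson's r of 0.735 (Rnf128 with Fhl2) to 0.972 (Prnp with Tspan13). These values describe 8 libraries of 3 populations, which share their scaling. All 5 genes were picked for standing highest in ILC2, so high correlations among them follow from that choice and carry no test. For each member, 84 to 113 of 12999 other genes reached an r of at least 0.9. The genes named next thus share the step between ILC2 and the rest with many others. The genes most like Rnf128 were 1700061F12Rik (0.965), Zfp536 (0.964), the type 2 cytokine gene Il13 (0.963) and the tubulin gene Tubb4a (0.962). Those most like Slc6a13 were the peroxiredoxin gene Prdx2 (0.981), the vitamin D receptor gene Vdr (0.980), Stab2 (0.978) and 1700113H08Rik (0.977). Those most like Prnp were Nfkb1 (0.985), which encodes a subunit of NF-kappaB, Pde7b (0.977), Stxbp6 (0.974) and Tspan13 itself. Those most like Tspan13 were the growth factor gene Vegfc, Rab26, Troap and Opalin, all at 0.994. Rab26, Troap and Opalin were low, at a mean of 3.36, 5.64 and 7.24 CPM in ILC2, with no count in T cells or microglia. Tspan13 itself was at 2527 CPM in ILC2, 302 CPM in T cells and 322 CPM in microglia. The r thus follows the step between ILC2 and the rest and not the level. Those most like Fhl2 were Pdzk1ip1 (0.985), the cell cycle regulator E2f1 (0.983), Crebzf (0.976) and Bcl2l15 (0.975). The order is close and rests on the added count. With 0.25 CPM added in place of 1, 2 of 4 names were kept for Rnf128, Slc6a13 and Prnp, 3 of 4 for Tspan13 and 1 of 4 for Fhl2.

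Of 20 protein-coding neighbours of the members on the chromosome, the nearest pair on each side, 12 were tested. Between ILC2 and T cells 0 were called by edgeR's test as used here, with 3 at an unadjusted p under 0.05, and 0 by DESeq2 or limma-voom, while edgeR's newer quasi-likelihood method called D330045A20Rik higher in ILC2 (adjusted p = 0.0325). Against microglia 2 were higher in ILC2 by edgeR, in a comparison in which 4.99% of all genes were called higher. D330045A20Rik, 8.73 kb from Rnf128, was at 68.5 and 27.0 CPM in ILC2 and at 0.109, 6.55 and 0 CPM in T cells, with no count in microglia (ILC2 over microglia, edgeR adjusted p = 0.0433). Nck2, an adaptor gene 248 kb from Fhl2, was at 15.3 and 15.5 CPM in ILC2 and at 1.74, 14.3 and 11.7 CPM in T cells, with 3, 0 and 0 counts in microglia (edgeR adjusted p = 0.0473). Its edgeR adjusted p was 0.0502 with RLE size factors in place of TMM and 0.0671 with only the 2 groups compared. Leaving out any ILC2 or microglia library ended the call of D330045A20Rik (adjusted p 0.0878 to 0.149). Nck2 also lost its call on leaving out either ILC2 library, microglia 2 or 3, or T cells 2 or 3 (adjusted p 0.0649 to 0.137).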

How the data were processed

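Per the submitters' processing notes, the authors worked on mouse build mm10 with STAR 2.5.3a, DESeq2 1.1, Cufflinks 2.0, FastQC 1.0.0 and bcl2fastq 2.20.0.422, in roles not stated; the counting program, its strand setting and its treatment of shared reads are not given in the sources used here. Total RNA was read as single-end reads, per the labels. The deposited table is titled as normalized, but its values are whole numbers that behave as raw counts, and they were treated as counts. How often each low value occurred followed a smooth curve (chi-square per degree of freedom 0.559 to 1.13), whereas microglia 1 scaled by 0.8 or 1.25 gave 7.99 and 15.2. Rows of reads outside genes (53.8% to 61.0%) and of ambiguous reads were left out, as were 27 rows whose symbols had become dates. The sample titles share the numbers 1 to 3 across the populations, and the labels leave unsaid whether equal numbers mark a shared mouse or pool. The column headings carry no numbers, so library numbers follow column order and pair nothing, and the tests treat libraries as independent.

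Tests were two-sided and used the quasi-likelihood method of edgeR 4.0.16 (R 4.3.3, limma 3.58.1), with TMM scaling, on 1 fit of 8 libraries and of the 13000 genes whose mean count reached 10. A gene was called when its adjusted p (Benjamini-Hochberg) was under 0.05 and its log2 fold change was 1 or more in size. The fit was checked on simulated counts for T cells against microglia alone, with large changes. Neither the ILC2 contrasts nor smaller changes were checked in this way. With the ILC2 contrasts used in the choice of members, only T cells against microglia was tested for them. The labels do not say whether libraries came from separate animals, so p-values cover the spread between libraries alone, and this may be technical. Floors of 3 counts cover counting error only. Exon lengths and gene positions come from GENCODE M21 (mm10), and lengths were found for 96.4% of the genes tested.

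The members and lists were chosen with earlier results of these data known. Named genes are the members, the 4 most similar genes of each by Pearson's r of log2(CPM + 1), and up to 4 called genes per related list and comparison by size of change; the other genes named, and the neighbours, were chosen after their values were seen. Alternatives were RLE size factors, no filter, DESeq2 1.42.0, limma-voom, only the 2 groups compared, plain CPM, each library left out and, added after seeing the data, edgeR's newer quasi-likelihood method.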

Additional observations from a re-analysis of the deposited data

How the results depend on the processing

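The number of genes called depended on the tool. For ILC2 against T cells it was 120, and 235 with no filter, 529 by DESeq2, 292 by limma-voom and 321 by the newer quasi-likelihood method, and 62 to 121 on leaving out a library (71 without T cells 1, 76 without ILC2 1, 62 without ILC2 2). For ILC2 against microglia it was 1268, and 2329, 2085 and 2251 by DESeq2, limma-voom and the newer method, and 711 (without ILC2 2) to 1270 on leaving out a library. For T cells against microglia it was 1695, and 2713 by DESeq2, 2723 by the newer method and 1186 to 1762 on leaving out a library. The cause was not tested.

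Between T cells and microglia, 3 of the 4 log2 fold changes that did not pass the test crossed 0 on leaving out a library: Rnf128 lay between -0.92 and 0.017 (positive without microglia 3), Prnp between -0.50 and 0.094 (positive without T cells 1, at 0.057 without microglia 1 and at 0.0015 without microglia 2) and Tspan13 between -0.23 and 0.038 (positive without microglia 1 and at 0.0028 without T cells 1). Slc6a13 kept its sign, from 0.76 to 1.45, as did Fhl2, from 9.67 to 10.71. Fhl2 kept its call and the other members stayed uncalled under all settings run. Plain CPM moved the median log2 ratio of all genes by 0.35 for ILC2 over microglia and by 0.37 for T cells over microglia; with it, the log2 ratio of ILC2 over microglia became 3.32 for Tspan13 (2.97 with TMM) and 9.64 for the lower bound of Fhl2 (9.31 with TMM).

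On leaving out a library, the log2 ratio of ILC2 over T cells ran from 4.31 to 5.17 for Rnf128, 3.67 to 4.50 for Slc6a13, 3.46 to 3.97 for Prnp, 2.97 to 3.15 for Tspan13 and 3.38 to 4.29 for Fhl2. That of ILC2 over microglia ran from 3.91 to 4.70 for Rnf128, 4.87 to 5.44 for Slc6a13, 3.23 to 3.78 for Prnp, 2.88 to 3.10 for Tspan13 and 9.13 to 9.46 for the bound of Fhl2. No paired analysis was possible because the columns used carry no replicate numbers, although the sample titles do.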
